A study of Homo sapiens with 40 samples.

Results

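The TSC22D and ZFP36 families were described in A549, an established line of human lung carcinoma cells, through every array probe annotated to 7 genes: TSC22D1, TSC22D2, TSC22D3, TSC22D4, ZFP36, ZFP36L1 and ZFP36L2. They are 7 of the 18353 genes with a probe of a single symbol. In the order named, they lie on chromosomes 13, 3, X, 7, 19, 14 and 2. These genes had 15 of the 34469 probes in the deposited table, 12 for the TSC22D family and 3 for the ZFP36 family. TSC22D3 had 5 probes, TSC22D1 had 4, TSC22D2 had 2, and the other genes had 1 each. All probes of a gene were kept because the TSC22D3 probes differed. The study asked how depletion of a coregulator of the glucocorticoid receptor alters gene regulation by dexamethasone (dex), a synthetic glucocorticoid. All cells were transfected with siRNA, moved 2 days later to medium without hormone, and exposed on the following day to 100 nM dex or to ethanol, the solvent control. The dex arrays are labelled 6 h; the ethanol arrays carry 0 h in their titles, although the protocol gives 6 h for both treatments. The nonspecific siRNA, siNS, had 6 arrays per treatment, siCCAR1, siCoCoA and siCCAR2 had 4 each, and siZNF282 had 2, which made 40 arrays in 10 groups. The siZNF282 arrays are titled ZFP282 #1.

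TSC22D proteins share a leucine zipper next to a conserved motif called the TSC box, through which they form dimers with each other. TSC22D3 encodes GILZ, the glucocorticoid-induced leucine zipper, which is known to bind NF-kappaB and AP-1 subunits and to dampen inflammatory transcription. TSC22D1 was named for its induction by TGF-beta in other cells, and TSC22D2 and TSC22D4 are less studied relatives. ZFP36, also called tristetraprolin, and its paralogs ZFP36L1 and ZFP36L2 carry paired zinc fingers that bind AU-rich elements in mRNAs. They bring in the CCR4-NOT deadenylase, which shortens the poly(A) tail and starts decay of the bound mRNA. In lung epithelial cells, glucocorticoids are known to raise TSC22D3 and ZFP36.

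The values are log2 intensities, normalized by the authors before deposit, with array medians of 4.67 to 4.69, and 13903 probes with 1 gene symbol and a mean above 5 in at least 1 group were tested. Below that line of 5 a value is called near background, since the most frequent value was 4.39. Of the 15 probes of the 7 genes, 14 passed the line and 3 of these, TSC22D3 ILMN_2276952 and ILMN_1781356 and TSC22D1 ILMN_1711091, passed it in dex groups alone. The siRNA targets kept 20.1% to 73.8% of their siNS level, least for CCAR2 and most for CALCOCO1, the gene of CoCoA. CCAR2 was also lower in siCoCoA cells, by -0.96 in ethanol and -1.10 in dex, so siCoCoA cells were low in both. There CCAR2 kept 51.5% and 46.7% of its siNS level, less than CALCOCO1 with 73.8% and 54.3%. CALCOCO1 was called higher in siCCAR1 ethanol (0.50) and in siZNF282 ethanol (0.53) and dex (0.66). NR3C1, the gene of the glucocorticoid receptor, differed from siNS by -0.40 to -0.01 over the 8 depletion comparisons, none of them called. Of 9 A549 marker probes, 8 were above the line in every group, and AKR1C1 was near background throughout. Of 11 markers of leukocytes, endothelium and fibroblasts, 5 were above it in some group and 2, CD14 and LUM, in every group. PTPRC, CD3E, PECAM1, VWF and CDH5 were near background in every group. The labels do not say whether arrays of a group came from separate cultures, so p-values measure the spread between arrays, which may be technical.

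Sequence around transcription starts is shown for the most strongly induced member of each family. RefSeq windows on GRCh38.p14, from 250 bases before to 50 bases after a start, were available for 5 of the 7 genes and 13 starts. TSC22D3 had 4 of these, all on the minus strand of chromosome X, and ZFP36 had 1. Capitals mark matches on either strand to the core of a glucocorticoid response element written ACANNNTGT, to the hexamer AGAACA of that element and to the TATA box TATAAA.
TSC22D3 upstream start, chrX:107775738-107776037, minus strand: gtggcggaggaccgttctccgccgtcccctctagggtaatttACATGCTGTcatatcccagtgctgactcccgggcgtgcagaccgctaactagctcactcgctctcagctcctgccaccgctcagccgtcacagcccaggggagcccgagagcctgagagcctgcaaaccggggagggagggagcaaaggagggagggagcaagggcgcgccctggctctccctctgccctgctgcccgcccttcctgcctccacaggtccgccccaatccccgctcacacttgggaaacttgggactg
TSC22D3 downstream start, chrX:107717013-107717312, minus strand: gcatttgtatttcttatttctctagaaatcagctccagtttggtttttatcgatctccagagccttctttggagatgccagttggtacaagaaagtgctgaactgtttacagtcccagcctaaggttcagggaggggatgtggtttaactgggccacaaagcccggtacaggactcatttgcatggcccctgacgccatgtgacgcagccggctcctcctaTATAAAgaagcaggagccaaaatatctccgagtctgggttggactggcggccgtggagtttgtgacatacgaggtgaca
ZFP36, chr19:39406597-39406896, plus strand: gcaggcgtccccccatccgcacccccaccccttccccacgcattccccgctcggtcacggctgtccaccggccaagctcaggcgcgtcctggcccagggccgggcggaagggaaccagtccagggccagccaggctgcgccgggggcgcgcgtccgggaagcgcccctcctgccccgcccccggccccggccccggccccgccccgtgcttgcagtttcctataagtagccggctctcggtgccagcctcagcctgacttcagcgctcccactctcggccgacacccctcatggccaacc
The upstream TSC22D3 window held an ACANNNTGT core, found in 5.37% of all 35116 windows, and the overlapping window chrX:107775939-107776238 held the same site. The downstream TSC22D3 window shown held TATAAA, found in 11.5% of windows. The other downstream TSC22D3 window, chrX:107716459-107716758, held none of the marked motifs. No TSC22D3 or ZFP36 window held AGAACA, found in 14.8% of windows, or the full palindrome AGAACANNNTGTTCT, found in 0.00285%. These matches describe letters in short windows and are not binding sites.

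TSC22D3 rose strongly with dex under every siRNA, and the size of the rise depended on the probe. On ILMN_1748124, annotated to transcript NM_198057, the siNS ethanol arrays ran from 7.62 to 8.29 with a median of 8.04. The siNS dex arrays ran from 11.59 to 12.26 with a median of 11.99, so the groups did not overlap. The response was 3.95 ± 0.15 (log2, SE, n = 6 and 6, limma adjusted p = 3.82e-21), a 15.5-fold rise. ILMN_2376403, annotated to NM_004089, read 6.41 to 6.73 in siNS ethanol and 10.79 to 11.58 in siNS dex. Its response of 4.65 ± 0.18, or 25.1-fold (limma adjusted p = 4.18e-21), ranked 1 of the 13903 probes from the top, and ILMN_1748124 ranked 3.

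The other 3 TSC22D3 probes were close to background in ethanol. ILMN_2276952, also annotated to NM_004089, read 4.27 to 4.73 in siNS ethanol, below the line on every array. In siNS dex it read 7.31 to 8.22, so the groups did not overlap. With ethanol set at the line of 5, its rise was at least 6.81-fold in siNS and 4.55-fold in siCoCoA. It was at least 5.24-fold in siCCAR1, 5.49-fold in siCCAR2 and 6.17-fold in siZNF282. Without that setting the siNS response had a limma adjusted p of 5.51e-17. ILMN_1781356, the other probe for NM_198057, read 4.37 to 4.60 in siNS ethanol and 4.41 to 5.57 in siNS dex, with 1 dex array among the ethanol values. Its response was 0.66 ± 0.15 (limma adjusted p = 0.00184), at least 1.07-fold against the line. Both probes passed the filter in dex groups alone, so their p-values are no independent support for a rise. The fifth probe, ILMN_1695382, annotated to NM_001015881, had group means of 4.27 to 4.59 with no mean above the line, and was not tested.

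**Figure D1:**
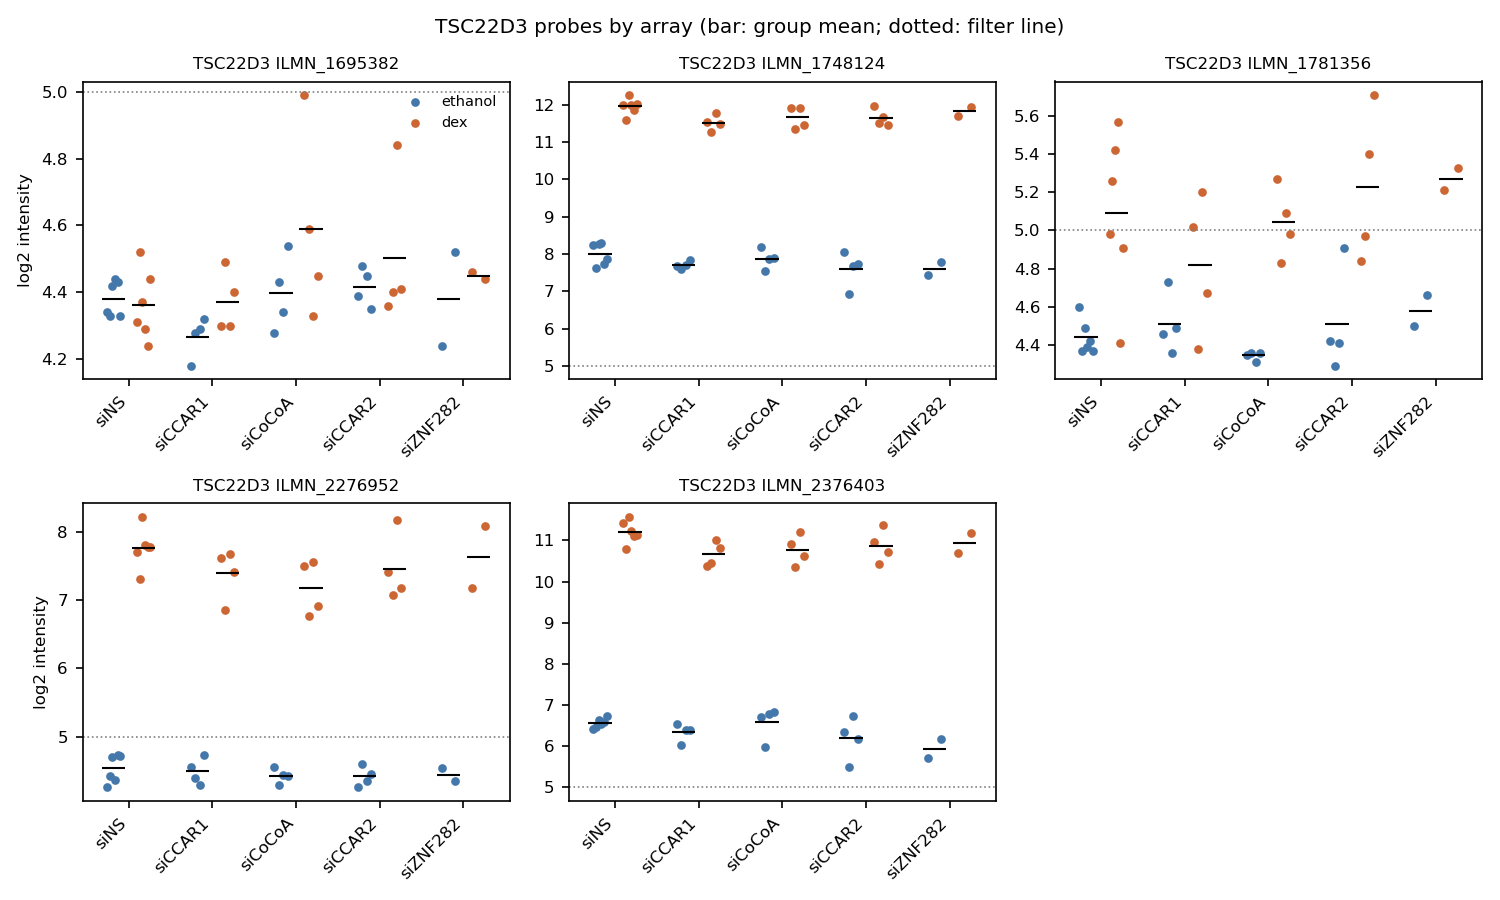
Log2 intensity of the 5 TSC22D3 probes on each of 40 arrays, by siRNA (horizontal axis) and treatment (colour); black bars are group means, the dotted line is the filter line of 5, and each panel has its own vertical scale. On ILMN_1748124, ILMN_2276952 and ILMN_2376403 every dex array lies above every ethanol array, whereas ILMN_1695382 stays under 5 on all arrays.

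Differences between probes were compared within arrays, which sets responses and not levels against each other. In siNS cells ILMN_2376403 responded more than ILMN_1748124 by 0.70. The exact two-sided permutation p over 6 dex and 6 ethanol arrays was 0.00216, the smallest that 924 arrangements allow, and 0.00216 after adjustment over 6 pairs of probes. With the siNS arrays paired by number, an exact sign-flip test gave 0.0312, the smallest that 64 arrangements allow. Under the depletions ILMN_2376403 minus ILMN_1748124 was 0.51 in siCCAR1, 0.40 in siCoCoA, 0.62 in siCCAR2 and 0.78 in siZNF282 cells. The other 5 pairs contain ILMN_2276952 or ILMN_1781356, whose ethanol means of 4.54 and 4.44 in siNS cells lie below the line, so the size of their response is not known and no test of those pairs is given.

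TSC22D3 rose under every depletion. On ILMN_1748124 the siCCAR1 dex arrays read 11.55, 11.26, 11.78 and 11.48, the siCoCoA dex arrays 11.92, 11.36, 11.91 and 11.47, and the siCCAR2 dex arrays 11.97, 11.50, 11.67 and 11.47. The siZNF282 dex arrays read 11.71 and 11.94. Each of these groups overlapped the siNS dex range, and no dex array overlapped the ethanol arrays, of which the highest read 8.29. The response was 3.81 with siCCAR1, 3.80 with siCoCoA, 4.05 with siCCAR2 and 4.22 with siZNF282, each called by limma (adjusted p of 4.65e-14 or less). The change of response against siNS was -0.14 (95% interval -0.63 to 0.35), -0.16 (-0.64 to 0.33), 0.10 (-0.39 to 0.59) and 0.26 (-0.35 to 0.88) in the same order. On ILMN_2376403 the changes were -0.33, -0.46, 0.02 and 0.35, with the widest interval, -0.39 to 1.08, in siZNF282 cells.

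No change of the dex response against siNS was called for any of the 14 probes under any depletion (limma, adjusted p from 0.569 upward). At an unadjusted p under 0.05 there was 1 probe, ZFP36L2 in siCCAR2 cells. Over all probes tested this comparison called 0.0791% in siCCAR1, 0.0144% in siCoCoA, 0.0719% in siCCAR2 and 0.173% in siZNF282 cells. These 4 comparisons share the 12 siNS arrays, so they are not independent of each other.

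In the fit of group means the level of TSC22D3 in dex was called lower in 1 of 16 probe-by-depletion comparisons. With replicate number as a block more of them were called lower, as given below. On ILMN_2276952 the siCoCoA dex arrays read 7.50, 6.76, 7.56 and 6.91 against 7.31 to 8.22 in siNS dex, so the groups overlapped, and the difference was -0.58 ± 0.19 (limma adjusted p = 0.0287). That call was lost without siNS dex array 3 (adjusted p = 0.0750) and without siCoCoA dex array 2 (0.149) or 4 (0.115), and in a fit of only the groups compared (0.0598) or with no intensity filter (0.0505). On ILMN_1748124 and ILMN_2376403 the differences in dex were -0.43 and -0.54 in siCCAR1, -0.29 and -0.44 with siCoCoA, -0.30 and -0.34 with siCCAR2, and -0.13 and -0.27 with siZNF282, none of them called. In siCCAR1 dex cells calls appeared without siNS dex array 2 (limma adjusted p = 0.0400 and 0.0319) and, on ILMN_2376403, without siCCAR1 dex array 3 (0.0372), in a fit of only the groups compared (0.0477), with a filter line of 6 (0.0475) and with an intensity trend (0.0407). With that trend ILMN_1748124 was called too (0.0495). On ILMN_2276952 a siCCAR2 call appeared without siCCAR2 dex array 3 (-0.55, 0.0454). With replicate number as a block, siCCAR1 dex cells were called lower on ILMN_1748124 (-0.49, limma adjusted p = 0.0034) and on ILMN_2376403 (-0.54, 0.00321). With that block ILMN_1748124 gave -0.34 (limma adjusted p = 0.0386) in siCoCoA and -0.35 (0.0339) in siCCAR2 dex cells. With that block ILMN_2376403 gave -0.44 (limma adjusted p = 0.0157) in siCoCoA dex cells. In bulk RNA, fewer cells with a transcript and less transcript per cell cannot be told apart. In ethanol none of the 16 TSC22D3 values was called, with differences of -0.62 to 0.14, although ILMN_1748124 was called in siCCAR2 ethanol without siCCAR2 array 1 (-0.55, limma adjusted p = 0.0324). The lowest of these, ILMN_2376403 in siZNF282 ethanol, had an adjusted p of 0.0645. It was called in a fit of only the groups compared (0.0121), with an intensity trend (0.0470) and with the block (-0.58, limma adjusted p = 0.00879). With the block ILMN_1748124 was called in siCCAR1 (-0.35, limma adjusted p = 0.0412) and siCCAR2 ethanol (-0.45, 0.00683), and ILMN_2376403 in siCCAR2 ethanol (-0.37).

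ZFP36 was the ZFP36 family member with the largest rise. Its probe, ILMN_1720829, ran from 8.09 to 8.92 in siNS ethanol (median 8.62) and from 9.99 to 10.75 in siNS dex (median 10.62), without overlap. The rise was 1.89 ± 0.20 on the log2 scale, or 3.70-fold (limma adjusted p = 3.25e-09), and ranked 48 of 13903 probes from the top. The siCCAR1 arrays went from 8.69, 8.61, 8.90 and 8.64 in ethanol to 10.31, 10.53, 10.65 and 10.53 in dex, a rise of 1.80 ± 0.25. The siCoCoA arrays went from 8.41, 9.22, 9.38 and 9.19 to 10.05, 10.60, 10.49 and 10.79, a rise of 1.43 ± 0.25. The siCCAR2 arrays went from 7.55, 8.88, 8.57 and 8.81 to 9.58, 10.23, 10.89 and 10.59, a rise of 1.87 ± 0.25. In siZNF282 cells 9.12 and 9.41 became 10.50 and 10.70, a rise of 1.34 ± 0.35 (limma adjusted p = 0.0148).

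Under every siRNA the ZFP36 dex arrays lay above the ethanol arrays of the same siRNA. The order of the dex means, from 10.60 in siZNF282 to 10.32 in siCCAR2, held only neighbours whose ranges overlapped. In ethanol the highest means were 9.26 in siZNF282 and 9.05 in siCoCoA against 8.58 in siNS, differences of 0.69 (limma adjusted p = 0.0665) and 0.47 (0.176) that were not called. Without siNS ethanol array 6 the siZNF282 difference was called (0.75, limma adjusted p = 0.0490). It was also called in a fit of only the groups compared (0.0360) and with an intensity trend (0.0458). With replicate number as a block both ethanol differences were called, 0.62 in siZNF282 (limma adjusted p = 0.0183) and 0.59 in siCoCoA cells (0.0086). The changes of the ZFP36 response were -0.45 (95% interval -1.10 to 0.19) in siCoCoA and -0.55 (-1.37 to 0.27) in siZNF282, and -0.09 and -0.02 in siCCAR1 and siCCAR2 cells. The siZNF282 rise lost its call without ethanol array 2 or either dex array (limma adjusted p of 0.0659 to 0.155) and in a fit of its own 4 arrays (0.0815).

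ZFP36L2, which like ZFP36 promotes decay of AU-rich mRNAs, rose less, and its rise was called under all 5 siRNAs. On ILMN_2150258 siNS ethanol ran from 7.38 to 7.83 and siNS dex from 7.69 to 8.26, which overlapped. The siNS rise was 0.43 ± 0.10 (1.35-fold, limma adjusted p = 0.00239). The siCCAR2 arrays went from 7.14, 7.21, 7.0 and 7.10 to 7.79, 7.94, 8.11 and 7.97, without overlap, a rise of 0.84 ± 0.13 (limma adjusted p = 5.98e-06). The rise was 0.56 in siCCAR1, 0.42 in siCoCoA and 0.75 in siZNF282 cells. In siCCAR2 cells the ethanol level was lower than in siNS by -0.48 ± 0.12 (limma adjusted p = 0.00315, ranges without overlap), whereas the dex level differed by -0.08. The change of the response in siCCAR2 cells, 0.40 (95% interval 0.07 to 0.73), had an unadjusted p of 0.0188 and an adjusted p of 0.627. The siCoCoA rise lost its call without siCoCoA ethanol array 2 or 3 or dex array 1 (0.0552 to 0.131) or in its own fit (0.0768), and the siZNF282 rise without either array 2 (0.0549 and 0.127) or in its own fit (0.241).

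ZFP36L1, another paralog with the same kind of zinc fingers, did not pass the test in any of the 13 comparisons of groups. ILMN_1675448 ran from 9.18 to 9.76 in siNS ethanol and from 8.92 to 9.82 in siNS dex, a difference of -0.01 with a 95% interval of -0.32 to 0.30. Under the depletions the dex responses were 0.26 in siCCAR1, 0.30 in siCoCoA, -0.45 in siCCAR2 and -0.32 in siZNF282 cells. A ZFP36L1 call appeared for the siCCAR2 response without siCCAR2 dex array 2 (-0.61, limma adjusted p = 0.0471). In ethanol one appeared for siCCAR1 without siNS array 2 (-0.54, 0.0482) or siCCAR1 array 3 (-0.59, 0.0391), and for siZNF282 without siNS array 3 (0.61, 0.0373). On all arrays the ethanol differences were -0.48 in siCCAR1 and 0.54 in siZNF282 cells (limma adjusted p = 0.0614 and 0.0581). Both were called in a fit of only the groups compared (0.0241 and 0.0277), with a filter line of 6 (0.0480 and 0.0492) and with an intensity trend (0.0403 and 0.0406). With the replicate block the siCCAR1 ethanol difference was called (-0.52, limma adjusted p = 0.0287). In a comparison chosen after the values were seen, the siNS response of ZFP36 exceeded that of ZFP36L1 by 1.90 and that of ZFP36L2 by 1.45. Each of these had an exact two-sided permutation p of 0.00216 with 6 and 6 arrays, the smallest possible, and the same value adjusted over the 5 pairs of genes compared. With the arrays paired by number an exact sign-flip test gave 0.0312, again the smallest possible. Since these pairs were chosen on the same values, the p-values are no independent support.

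**Figure D2:**
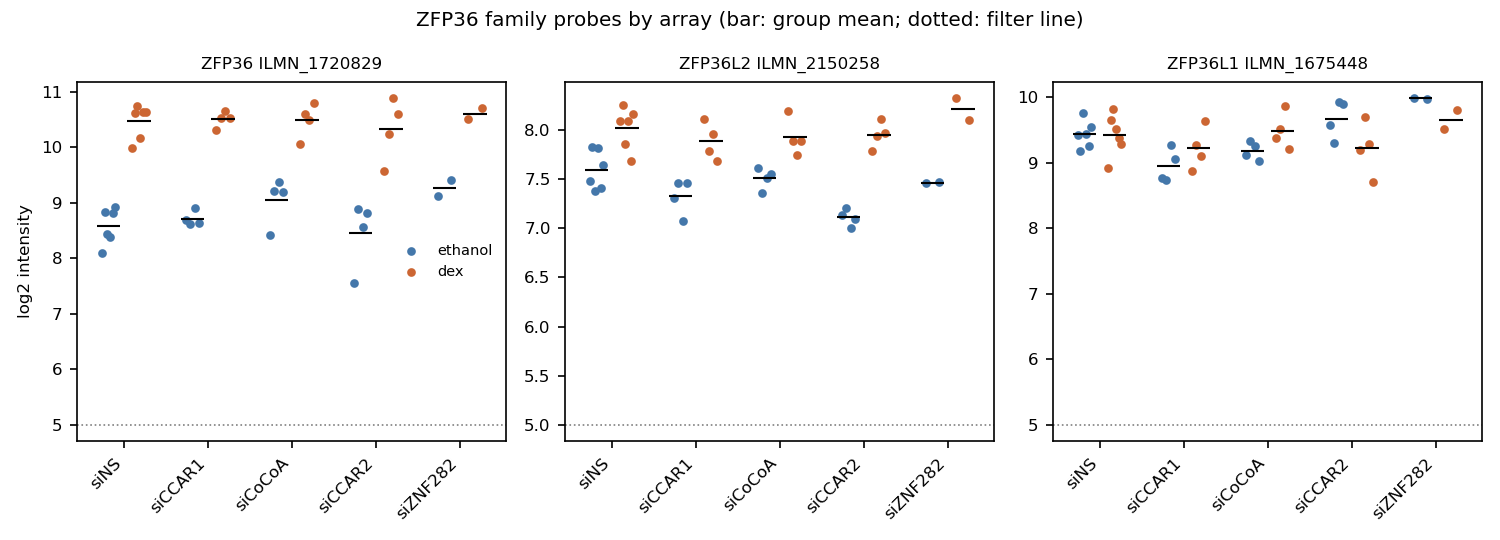
Log2 intensity of the ZFP36, ZFP36L2 and ZFP36L1 probes on each array by siRNA (horizontal axis) and treatment (colour), with group means as black bars and a vertical scale per panel. ZFP36 dex arrays lie above the ethanol arrays under every siRNA, ZFP36L2 rises by 0.42 to 0.84 (log2), and ZFP36L1 overlaps in siNS cells.

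The other TSC22D genes had no called dex response in siNS cells. The siNS responses were -0.20, 0.20, -0.22 and -0.22 for the 4 TSC22D1 probes, -0.04 and 0.11 for the TSC22D2 probes and 0.30 (95% interval -0.06 to 0.66) for TSC22D4, none of them called. Compared after the values were seen, the response of ILMN_1748124 in siNS cells exceeded that of the brightest probe of each other TSC22D gene. The excess was 4.17 over TSC22D1, 3.85 over TSC22D2 and 3.65 over TSC22D4. Each had an exact permutation p of 0.00216, and an exact sign-flip p of 0.0312 with the arrays paired by number. Since the pairs were chosen on these values, the p-values are no independent support. Under the depletions 1 of the 7 probes of TSC22D1, TSC22D2 and TSC22D4 was called, TSC22D1 ILMN_1692177 in siCoCoA cells. Its arrays went from 10.14, 9.89, 10.18 and 10.33 in ethanol to 9.59, 9.52, 9.89 and 9.55 in dex, a fall of -0.50 ± 0.16 (limma adjusted p = 0.0374). The lowest ethanol array and the highest dex array both read 9.89. The call was lost without any of siCoCoA ethanol arrays 1, 3 and 4 or dex arrays 1, 2 and 4 (0.0737 to 0.127), and with no intensity filter (0.0582). In siCCAR2 cells its response of -0.40 was called without siCCAR2 ethanol array 2 (-0.52, limma adjusted p = 0.0415).

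**Figure D3:**
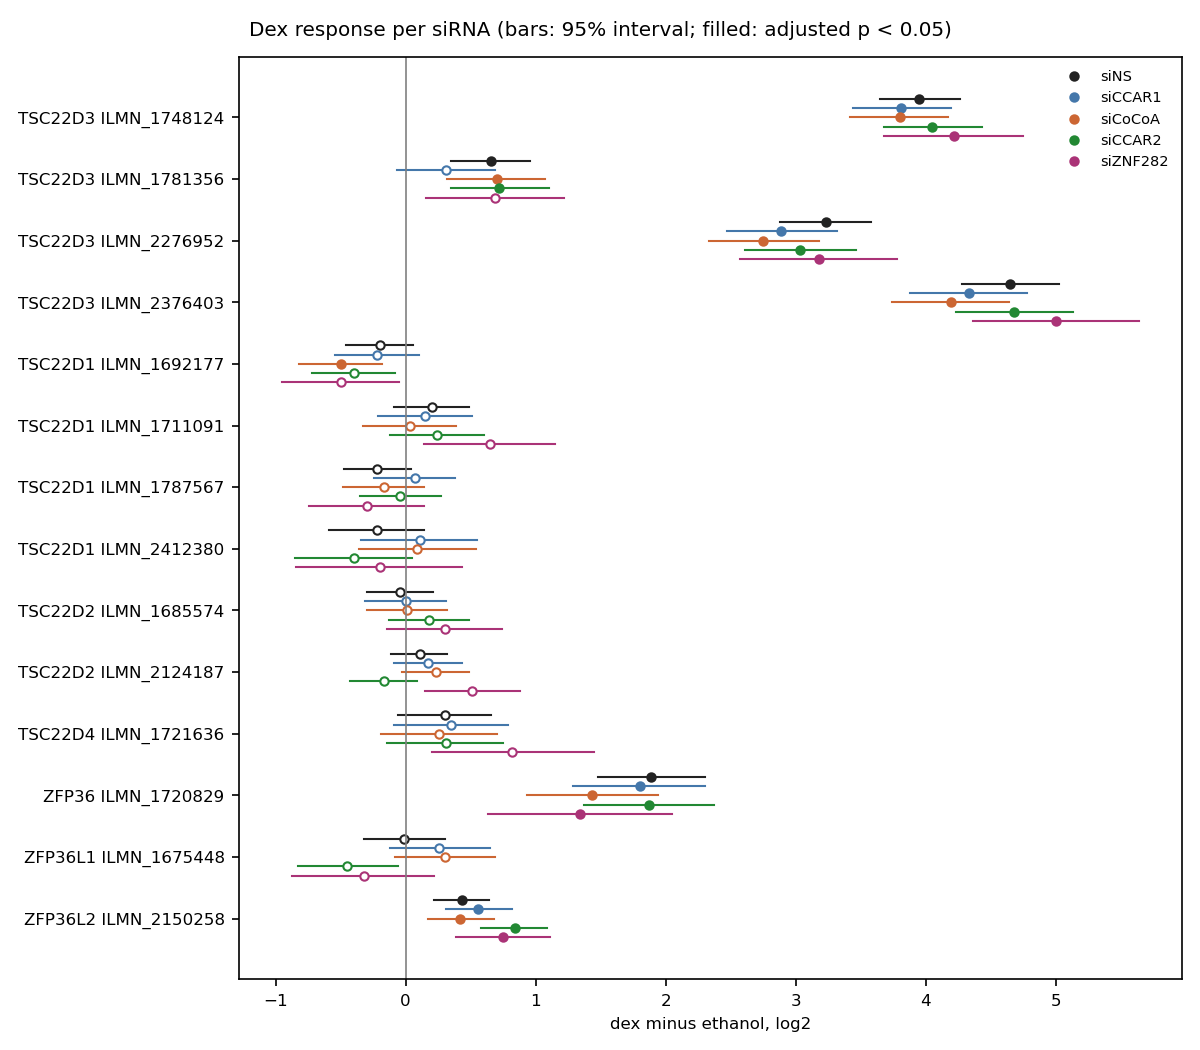
Dex minus ethanol (log2, horizontal axis) for the 14 tested probes under each of the 5 siRNAs (colour), with 95% intervals; filled points have a limma adjusted p under 0.05. TSC22D3 ILMN_1748124 and ILMN_2376403 lie between 3.80 and 5.00, ILMN_2276952, near background in ethanol, between 2.75 and 3.23, ZFP36 between 1.34 and 1.89, ZFP36L2 between 0.42 and 0.84, and TSC22D1, TSC22D2, TSC22D4 and ZFP36L1 between -0.50 and 0.82.

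Of the 14 probes, 6 were called higher and 0 lower in the siNS dex response, against 6.87% of all tested probes called higher and 14.8% called either way. The counts were 5 higher in siCCAR1 (3.85% of all probes higher, 6.66% either way), and 6 higher and 1 lower in siCoCoA (4.84% and 8.86%). They were 6 higher in siCCAR2 (5.77% and 8.75%) and 5 higher in siZNF282 (3.73% and 5.94%). ILMN_2276952 and ILMN_1781356 entered the test through the dex groups where they are high, so their calls could only be rises. Without the 3 probes above the line in dex groups alone, 4 of 11 were called higher under each siRNA, and 1 lower in siCoCoA cells. The called probes belonged to TSC22D3, ZFP36 and ZFP36L2, apart from TSC22D1 in siCoCoA cells. Ranges of ethanol and dex did not overlap for 4 of the 14 probes in siNS, 5 in siCCAR1 and 7 in siCoCoA cells. They did not overlap for 5 in siCCAR2 cells and, with 2 arrays per group, for 13 in siZNF282 cells. The share over all probes was not computed, so these counts are read as no result about the members. The median response of the 14 probes was 0.25 in siNS cells, beside -0.03 over all probes. That median includes the 3 probes above the line in dex groups alone, so it is read as no result about the members.

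TSC22D1 was higher in siCoCoA cells on 3 of its 4 probes, in ethanol, dex or both. On ILMN_1692177 the siCoCoA ethanol arrays, 9.89 to 10.33, lay above all siNS ethanol arrays, 9.19 to 9.70, a difference of 0.65 ± 0.14 (limma adjusted p = 0.00152). On ILMN_1787567, annotated to the same transcript, NM_006022, the siCoCoA ethanol arrays read 11.33, 11.32, 11.34 and 11.28 against 10.58 to 11.01 in siNS, a difference of 0.48 ± 0.14 (limma adjusted p = 0.0183). Neither pair of groups overlapped. In dex the siCoCoA difference was 0.52 ± 0.14 on ILMN_1787567 (limma adjusted p = 0.00693) and 0.35 on ILMN_1692177 (0.0827), and 0.68 ± 0.20 on ILMN_2412380 (0.0155), a probe for NM_183422, with overlapping ranges. With the replicate block the last became 0.50 (limma adjusted p = 0.0609). Without siCoCoA dex array 3 the calls of ILMN_1787567 and ILMN_2412380 in dex were lost (0.0524 and 0.0739), and that of ILMN_1787567 also in a fit of only its groups (0.0680). On ILMN_1692177 a call in dex appeared without siNS dex array 4 (0.41, 0.0454). The fourth probe, ILMN_1711091, had means of 4.52 to 5.17, close to the line, and was not called in the 17 comparisons.

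With siCCAR2 the TSC22D1 values lay on the other side of siNS. On ILMN_1692177 the siCCAR2 dex arrays read 8.72, 8.82, 9.05 and 8.30 against 8.98 to 9.59 in siNS dex, and the difference was -0.56 ± 0.14 (limma adjusted p = 0.0048). The ranges overlapped at 1 array, and without siCCAR2 dex array 4 the adjusted p was 0.0511. On ILMN_2412380 the siCCAR2 difference in dex was -0.37 (limma adjusted p = 0.228), and -0.54 (0.0434) with the replicate block, while ILMN_1787567 differed by -0.06. In siCCAR2 ethanol ILMN_1692177 was called without siNS ethanol array 3 (-0.42, limma adjusted p = 0.0497) or siCCAR2 ethanol array 3 (-0.47, 0.0371). Over the 10 groups the ILMN_1692177 means fell from 10.14 in siCoCoA ethanol to 8.72 in siCCAR2 dex. All neighbours in that order overlapped, apart from siZNF282 ethanol and siCoCoA dex.

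TSC22D2 was higher than in siNS after depletion of CCAR1 or CCAR2. On ILMN_1685574 siNS ethanol ran from 6.74 to 7.07, while siCCAR1 ethanol arrays read 7.14, 7.53, 7.37 and 7.62 and siCCAR2 ethanol arrays read 7.32, 7.48, 7.27 and 7.44. Every depleted array was above every siNS array, and the differences were 0.49 ± 0.14 (limma adjusted p = 0.0178) and 0.45 ± 0.14 (0.0252). On the other probe, ILMN_2124187, annotated to the same transcript, they were 0.38 ± 0.12 (limma adjusted p = 0.0247) and 0.40 ± 0.12 (0.0158), again without overlap. In dex ILMN_1685574 gave 0.53 in siCCAR1, 0.67 in siCCAR2 and 0.52 in siZNF282 cells, all called, and ILMN_2124187 gave 0.45 in siCCAR1 (called), 0.12 in siCCAR2 and 0.33 in siZNF282 cells. In siCoCoA ethanol ILMN_2124187 was lower by -0.34 ± 0.12 (limma adjusted p = 0.048), while ILMN_1685574 differed by -0.09.

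Several TSC22D2 calls rested on single arrays. In ethanol the siCCAR1 call on ILMN_1685574 was lost without siCCAR1 array 2 or 4 (0.0658 and 0.0883), and on ILMN_2124187 without siNS array 5 or siCCAR1 array 1 or 2 (0.0561 to 0.118). The siCCAR2 calls were lost without siCCAR2 ethanol array 4 on both probes (0.0638 and 0.0958), and on ILMN_1685574 also without siNS ethanol array 5 (0.0570) or siCCAR2 ethanol array 2 (0.0809). The siCoCoA call on ILMN_2124187 was lost without any 1 of 9 of its 10 arrays, siNS ethanol array 5 being the exception, with values of -0.37 to -0.27. In dex the siZNF282 call was lost without siNS dex array 6 (0.0541) or siZNF282 dex array 2 (0.304), where the value was 0.38, and in a fit of only its groups (0.192). On ILMN_2124187 a siZNF282 call in dex appeared without siNS dex array 5 (0.42, 0.0178). The siCCAR1 calls in dex were lost in such a fit (0.0917 for ILMN_1685574 and 0.0586 for ILMN_2124187).

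TSC22D4 stood apart in siZNF282 dex cells. Its probe, ILMN_1721636, read 7.43 and 7.28 there, above the siNS dex range of 6.03 to 6.76, and the difference was 0.89 ± 0.25 (1.86-fold, limma adjusted p = 0.0066). Without siZNF282 dex array 2 the value was 0.82 with an adjusted p of 0.0976. The siZNF282 dex response was 0.82 (limma adjusted p = 0.12), and it was called with the replicate block (0.0494). In siCCAR1 cells TSC22D4 differed from siNS by -0.56 in ethanol (limma adjusted p = 0.061) and -0.51 in dex (0.0728), neither called, with siCCAR1 ethanol array 4 at 4.88, below the line. The ethanol difference was called without siNS array 4 or 5 or siCCAR1 array 1 or 2 (-0.68 to -0.63), and the dex difference without siNS array 2 (-0.60). On all arrays the ethanol difference was called with a filter line of 6 (0.0482) and with the replicate block (-0.53, limma adjusted p = 0.0379). The siCCAR1 dex difference was called in a fit of only the groups compared (0.0324).

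**Figure D4:**
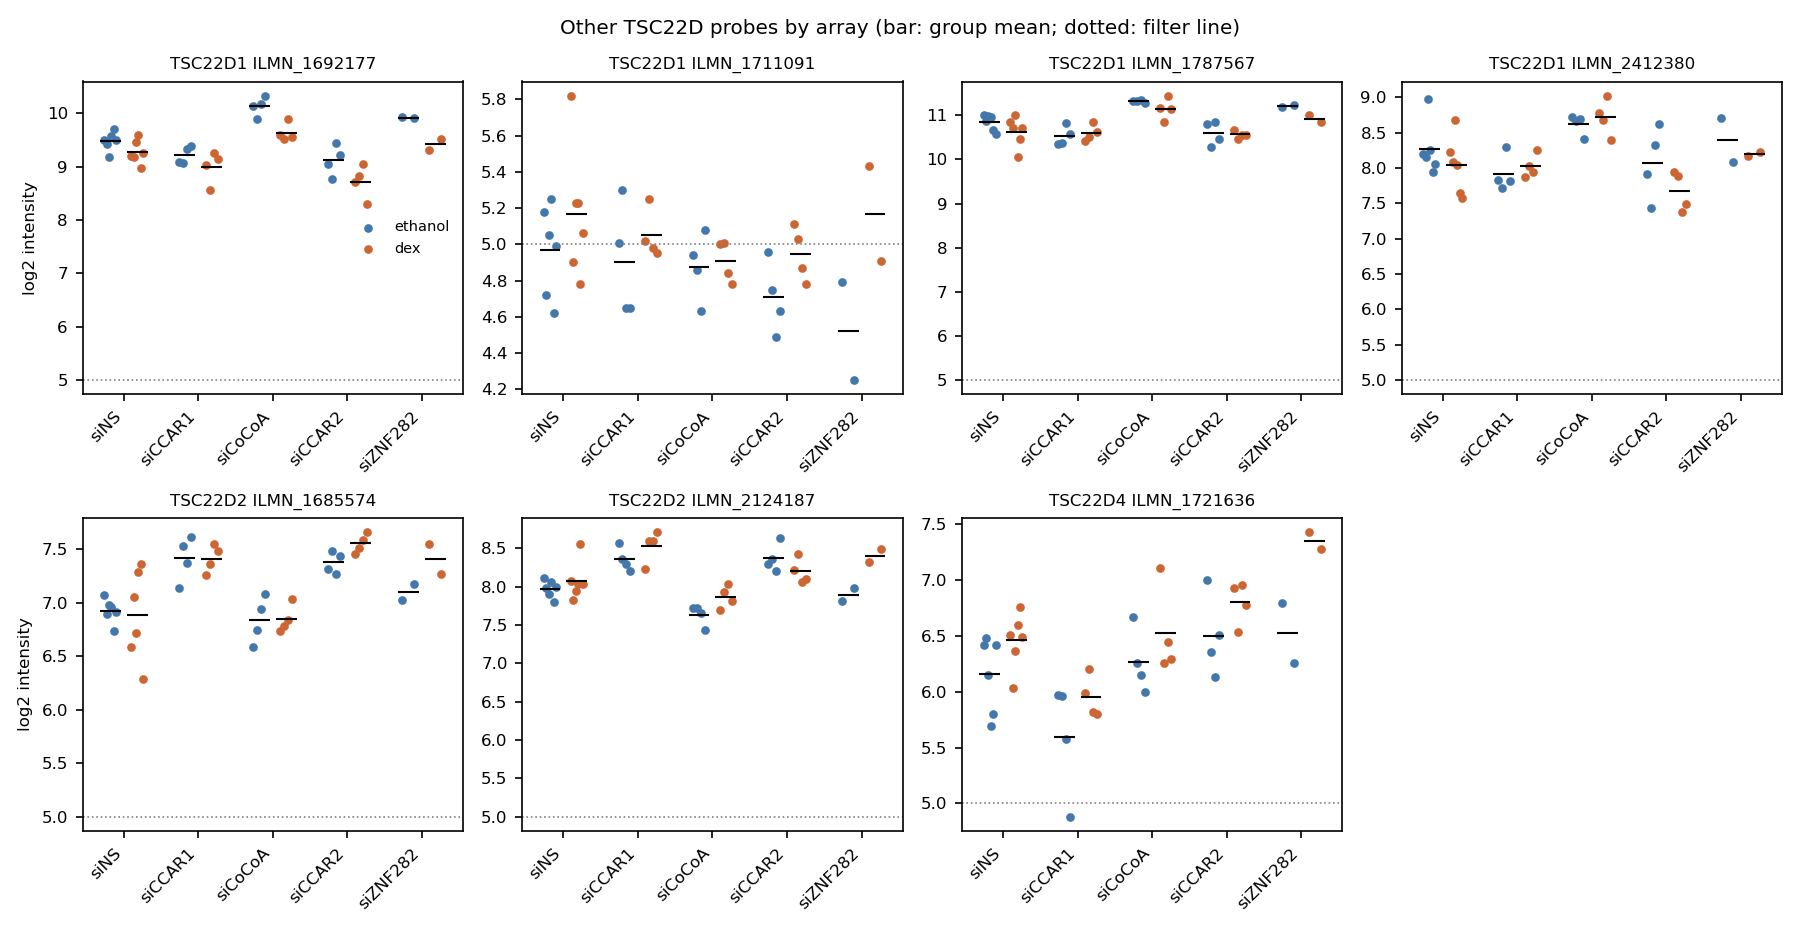
Log2 intensity of the TSC22D1, TSC22D2 and TSC22D4 probes on each array by siRNA (horizontal axis) and treatment (colour), with group means as black bars, the filter line of 5 dotted and a vertical scale per panel. The siCoCoA arrays are high on TSC22D1 ILMN_1692177 and ILMN_1787567, the siCCAR1 and siCCAR2 arrays are high on TSC22D2 ILMN_1685574, and both siZNF282 dex arrays are high on TSC22D4.

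Depletion in ethanol called 2 of the 14 probes in siCCAR1 cells (12.4% of all probes), 3 in siCoCoA (13.8%), 3 in siCCAR2 (14.9%) and 0 in siZNF282 (30.2%). For siZNF282, limma gave 6 probes at an unadjusted p under 0.05. Depletion in dex called 2 in siCCAR1 cells (17.7% of all probes), 3 in siCoCoA (18.6%), 2 in siCCAR2 (17.4%) and 2 in siZNF282 (28.6%). With 14 probes, these counts are near the shares over all probes, apart from siZNF282 in ethanol, and are read as no result about the members as a group. The comparisons within a treatment share the same 6 siNS arrays. Without single arrays these counts ran from 1 to 3 in siCCAR1 ethanol, 1 to 4 in siCCAR2 ethanol and 0 to 1 in siZNF282 ethanol, and from 2 to 5, 1 to 4, 1 to 3 and 0 to 3 in dex.

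**Figure D5:**
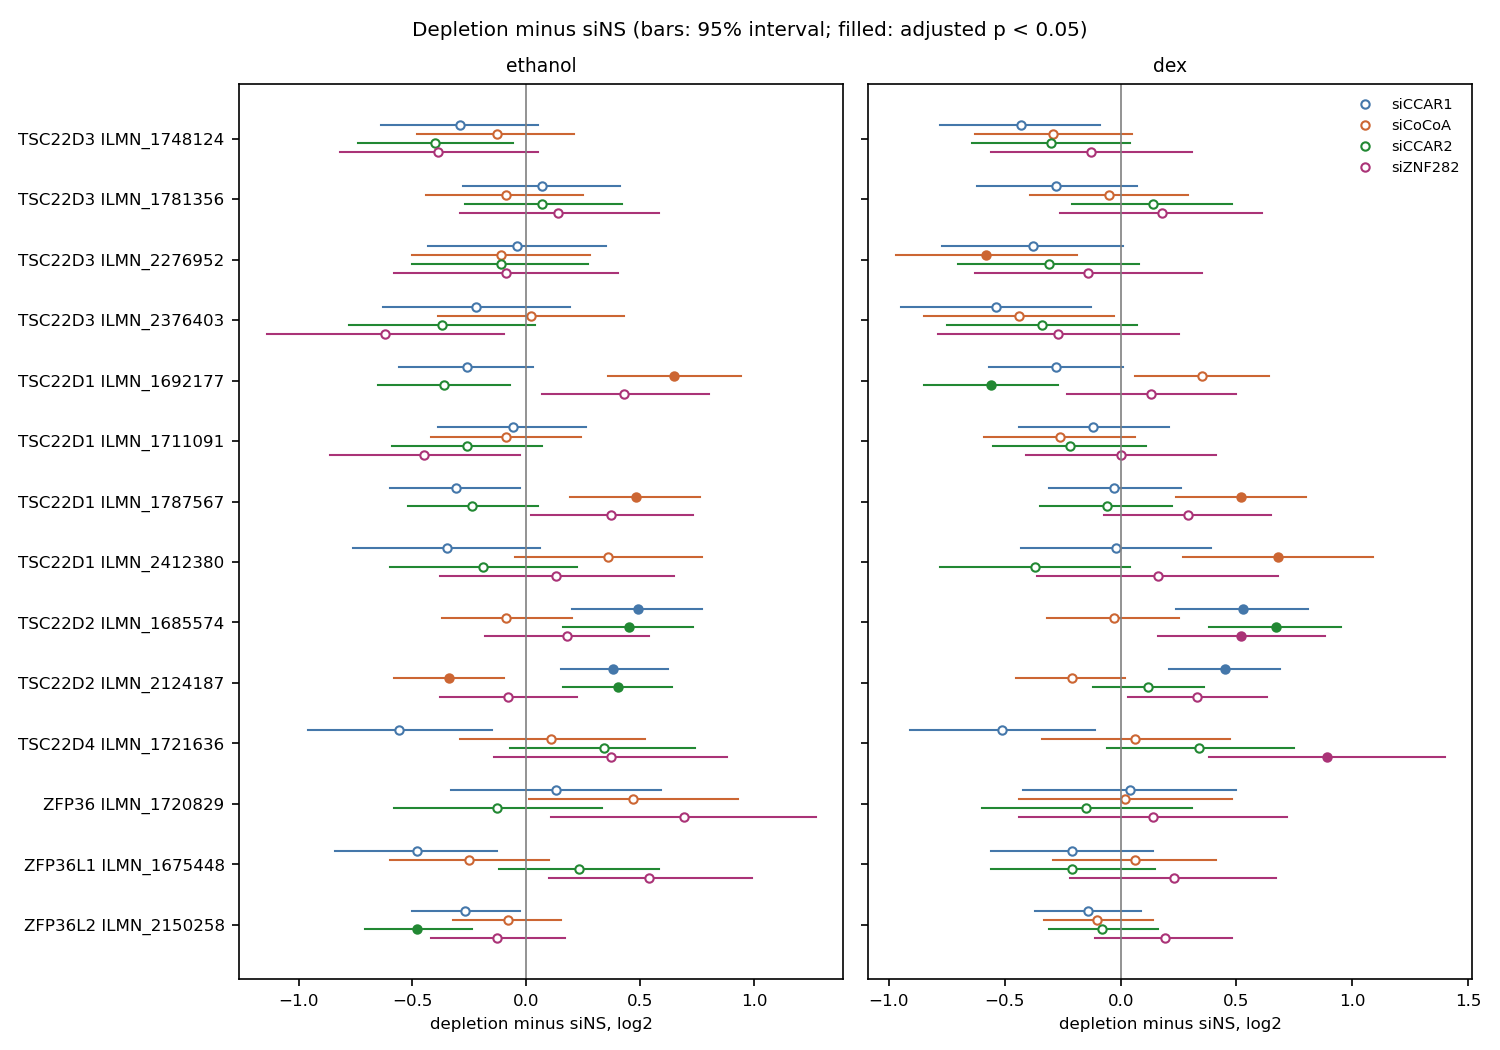
Depletion minus siNS (log2, horizontal axis) for the 14 tested probes in ethanol (left) and dex (right), by siRNA (colour), with 95% intervals; filled points have a limma adjusted p under 0.05. Called values lie between -0.58 and 0.89, and no ZFP36 or ZFP36L1 value is called.

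The genes around both families were counted from lists, each gene by its brightest probe, beside 15.8% of 10608 genes called in the siNS dex response and a median of -0.03. Of 24 tested mRNAs reported as ZFP36 targets, 5 rose and 10 fell, with a median of -0.30. The falls included IER3, an immediate early gene (-1.79 ± 0.10), PTGS2, the inducible prostaglandin synthase (-1.22 ± 0.13), and the chemokines CCL2 (-0.93), CXCL1 (-0.91), CXCL8 (-0.88) and CCL20 (-0.80). The rises included DUSP1, a phosphatase that inactivates MAP kinases (3.44 ± 0.12), FOS, an AP-1 subunit (2.15 ± 0.17), MCL1, a survival factor (1.04), and the cyclin CCND1 (0.62). A further list held genes known to be raised by glucocorticoids, both anti-inflammatory genes and common targets of the receptor. Because they were chosen for that, their rises are no independent result. Of its 14 tested genes, 11 rose and 0 fell, with a median of 1.29. Besides DUSP1 they included the transcription factor KLF9 (2.86), the cell cycle inhibitor CDKN1C (2.46), the protease inhibitor SERPINA3 (2.20), the kinase SGK1 (2.11), IRAK3, a brake on Toll-like receptor signalling (1.52), and NFKBIA, the inhibitor of NF-kappaB (1.13). CDKN1C and IRAK3 were below the line in siNS ethanol, so the size of their rise is not exact.

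Among 14 tested partners of TSC22D proteins, 5 rose and 1 fell, with a median of 0.20. FOXO3, a transcription factor that GILZ is reported to bind, rose by 1.56 ± 0.11, CEBPB by 0.83 ± 0.12, PPARG by 0.74 and the kinase STK39 by 0.37, and FOS is also on this list. JUN, the partner of FOS in AP-1, fell by -1.01 ± 0.18. Of 34 tested genes of mRNA decay, 2 rose and 6 fell, with a median of -0.09. BTG1, which stimulates deadenylation, rose by 0.55, as did the decapping factor EDC3, while the exosome subunit EXOSC9 fell by -0.55 and CNOT9, a CCR4-NOT subunit that contacts ZFP36, by -0.44. Of 11 other AU-rich element binding proteins, the RNase ZC3H12A rose by 0.71 and HNRNPAB fell by -0.35. Of 14 genes of the p38 kinase and 14-3-3 arm that acts on ZFP36, MAPKAPK2, the kinase that phosphorylates ZFP36, rose by 0.52 and MAP2K3, which activates p38, fell by -0.46.

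In dex most called ZFP36 targets were lower than in siNS with siCCAR1 and higher with the other depletions. ZFP36 itself was not called in dex, and a link to its targets was not tested. In siCCAR1 cells 1 of 24 was higher and 9 were lower (18.5% of all genes called, median -0.25), among them FOS (-1.21), PTGS2 (-1.02) and CXCL2 (-0.96). In siCoCoA cells 5 were higher and 2 lower (19.5% of all genes, median 0.15), with CCL20 (1.19), the cytokine IL6 (1.08) and PTGS2 (0.85) higher. In siCCAR2 cells 7 were higher and 0 lower (18.3% of all genes, median 0.10), with CCL20 at 1.36 and CCND1 at 0.73. In siZNF282 cells 13 were higher and 0 lower (29.8% of all genes, median 0.49), with IL6 at 2.90, CCL20 at 2.36 and PLAUR, the urokinase receptor, at 1.52. PLAUR was also higher in siCCAR2 cells (0.61). IL6 had a siNS dex mean of 4.83, below the line, so the size of its differences is not exact. The difference between depletions in these lists was not tested, and they share the siNS dex arrays. Much the same directions were seen without hormone. In ethanol 1 was higher and 6 lower in siCCAR1, and 3 and 1 in siCoCoA cells (12.4% and 13.8% of all probes called). Counts were 8 and 0 in siCCAR2 and 10 and 0 in siZNF282 ethanol cells (14.9% and 30.2%). For the change of the dex response, 1 of the 24 was called, lower in siCCAR2 cells.

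In dex the mRNA decay list held 1 higher and 1 lower gene of 34 in siCCAR1 and 1 and 6 in siCoCoA cells. It held 3 and 3 in siCCAR2 and 5 and 8 in siZNF282 cells. Over all genes 18.5%, 19.5%, 18.3% and 29.8% were called either way, in the same order. These shares go with each list count below, and no list was tested as a set. The decapping enzyme DCP2 was lower in siCoCoA (-1.08) and higher in siCCAR2 (0.59) and siZNF282 cells (0.67), its activator DCP1A was higher in siCoCoA (0.78), siCCAR2 (0.43) and siZNF282 cells (0.89), and the exonuclease XRN1 was higher in siZNF282 cells (1.15). CNOT8, a deadenylase subunit of CCR4-NOT, was lower in siCoCoA (-0.79) and siCCAR2 cells (-0.54), PATL1, a decapping activator, in siCCAR1 cells (-0.73) and EDC3 in siZNF282 cells (-0.79), while EXOSC10 was higher in siCCAR1 cells (0.33). Of the 11 other AU-rich element binding proteins, 0 were higher and 3 lower in siCCAR1, 0 and 0 with siCoCoA, 1 and 0 with siCCAR2, and 2 and 1 in siZNF282 cells. HNRNPD, which binds AU-rich elements, was lower in siCCAR1 cells by -0.94, and ZC3H12A was lower there (-0.60) and higher in siCCAR2 (0.64) and siZNF282 cells (0.90). RC3H2 was lower in siCCAR1 (-0.51), YBX1 lower in siZNF282 (-0.45) and TIA1 higher in siZNF282 cells (0.44). Of the TSC22D partners, 0 were higher and 3 lower in siCCAR1, 0 and 2 with siCoCoA, 2 and 1 with siCCAR2, and 5 and 0 in siZNF282 cells. The kinase STK39 was lower in siCCAR1 (-0.98) and higher in siCCAR2 (0.44) and siZNF282 cells (0.57). WNK4 was lower in siCCAR1 (-0.65) and WNK1 in siCCAR2 cells (-0.62). The siCCAR1 dex mean of WNK4 was 4.60, below the line, so the size of that difference is not exact. FOXO3 was lower in siCoCoA cells (-0.67), as was FOS (-0.52, limma adjusted p = 0.0498), CEBPB was higher in siCCAR2 cells (0.54), and JUN (1.23), FOS (1.06) and NFKB1 (0.63) were higher in siZNF282 cells.

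In dex the list of genes known to be raised by glucocorticoids held 0 higher and 4 lower genes of 14 in siCCAR1 cells. In siCoCoA cells it held 2 and 1. It held 3 and 2 in siCCAR2 and 4 and 1 in siZNF282 cells. The shares over all genes were again 18.5%, 19.5%, 18.3% and 29.8%, for this and the other lists. SERPINA3 was lower in siCCAR1 (-2.31) and higher in siZNF282 cells (1.70), CDKN1C was lower in siCCAR1 (-1.51), siCoCoA (-0.78) and siZNF282 cells (-1.32), and TNFAIP3, an inhibitor of NF-kappaB signalling, was higher in siCoCoA (0.66) and siZNF282 cells (1.63). ERRFI1 was lower in siCCAR1 cells (-0.57), SGK1 (-0.55) and BCL6 (-0.48) were lower in siCCAR2 cells, and TNIP1 was higher in siCoCoA (0.52) and siCCAR2 cells (0.62). The p38 and 14-3-3 list held 0 called genes of 14 in siCCAR1 and siZNF282, 1 lower in siCoCoA and 2 higher and 2 lower in siCCAR2 cells. YWHAH, a 14-3-3 protein, was lower in siCoCoA cells (-0.59), and in siCCAR2 cells PPP2CA, a catalytic subunit of protein phosphatase 2A, was lower (-0.72), as was YWHAB (-0.33), while SFN was higher (0.54). Of 8 A549 markers, 2 rose and 2 fell with dex in siNS cells, beside 15.8% of all genes called. They were KRT8 (0.95), KRT18 (0.66), NQO1 (-0.49) and AKR1B10 (-0.24). Under the depletions in dex 3 were lower in siCCAR1, 2 lower and 1 higher in siCoCoA, and 1 lower in siCCAR2 and in siZNF282 cells. The keratin KRT18 was lower in siCCAR1 (-0.91), siCCAR2 (-0.43) and siZNF282 cells (-0.59), KRT8 in siCCAR1 (-0.51) and siCoCoA cells (-0.52), and KRT19 in siCCAR1 cells (-0.82). In siCoCoA cells AKR1C2 was lower (-0.40) and NQO1 higher (0.31). Of the 5 tested markers of other cell types, DCN rose by 0.64 with dex, from below the line to a mean of 5.06. CD14, whose group means ran from 6.45 to 8.13, was lower in siCCAR1 (-0.82) and higher in siCoCoA dex cells (0.86). DCN was lower in siCCAR1 dex cells (-0.49), where its mean of 4.57 lay below the line. COL1A1 was higher in siCCAR2 dex cells (0.63). The part of these marker values in the results above was not tested.

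The genes whose 10 group means followed those of TSC22D3 ILMN_1748124 most closely were IRAK3 (Pearson r = 0.997), PYGB (0.996), ACSL1 (0.989), CIDEC (0.988) and SYBU (0.987). For ZFP36 they were RHOU (0.993), PRKCD (0.991), RBM20 (0.986), AKAP13 (0.983) and ARRB1 (0.980). These points share the treatment and the siRNA, and all 10 genes had dex responses in siNS cells of 1.17 to 4.26. Over the 40 arrays with each treatment mean subtracted, the closest genes to TSC22D3 were PARP11 (0.723), DCAF4 (0.717), NDUFC1 (0.706), FAM171A1 (0.692) and RSL24D1 (0.691). For ZFP36 they were NPEPL1 (0.781), UBAC2 (0.776), ZDHHC9 (0.770), TMBIM1 (0.743) and NIBAN2 (0.740). The arrays share siRNA groups and processing, and the values describe likeness of pattern only.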

How the data were processed

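Total RNA of A549 cells was measured on 40 Illumina arrays with 1 colour. The deposited values are log2 intensities normalized by the authors. The submitters' processing notes name limma 3.14.4; how background was corrected and signals normalized, and whether probes were filtered, is not given in the sources used here. The log base was inferred from the range, 4.13 to 14.32. A table of non-normalized signals with 80 columns of values was not used, because no label pairs its columns with samples.

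Symbols came from the platform annotation: 26360 probes had 1 symbol, 3 had several and 8106 had none listed. Single symbols were then updated or kept through the Entrez gene id, by the RefSeq symbol, for 26327 annotated probes. A probe was tested if its mean exceeded 5 in at least 1 group (13903 probes, 10608 genes). With limma 3.58.1 in R 4.3.3, the fit had 1 mean for each of the 10 groups over 40 arrays (30 residual and 6.07 prior degrees of freedom). The 17 comparisons were adjusted over all tested probes by Benjamini-Hochberg, with calls at an adjusted p under 0.05. The number of arrays limits the precision. TSC22D3 probes were compared with exact permutation tests in siNS cells. RefSeq promoter windows were searched in Python 3.11.15.

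Among groups with 3 or more shared numbers, same-numbered arrays deviated together, with every correlation over 0.1, in 2 kinds of comparison. These were the dex responses of siNS, siCCAR1, siCoCoA and siCCAR2, and siCoCoA and siCCAR2 against siNS in dex. This pairing comes from the data and not from the labels. The fit of group means and the permutation tests leave it out. Where values with it change a call, they are printed beside the result or in the closing section. Members and gene lists were chosen with earlier results of these data known. Named genes were all member probes, the called genes of each list with the largest changes (up to 4 for dex in siNS cells, up to 3 per depletion in dex), and the 5 genes most like TSC22D3 and ZFP36 by each measure. Further called list genes were named after their values were seen: CCL2, CXCL1, CXCL8, CCL20, MCL1, CCND1, SGK1, IRAK3, NFKBIA, PPARG and STK39 in the dex response, and DCP2 and STK39 with siZNF282 in dex. Alternatives were the replicate block, a fit of only the groups compared, other filters, the brightest probe per gene, quantile normalization, centring, an intensity trend and leaving out each array. An exact sign-flip test over paired siNS arrays was added after the values were seen. A planned start from non-normalized signals was not run.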

Additional observations from a re-analysis of the deposited data

Results flagged for a closer look

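Among 112 sets of a probe and a group of 4 or 6 arrays, 4 held an array far from the others of its group, fewer than the 1 in 20 that chance gives. TSC22D1 ILMN_2412380 read 8.98 on siNS ethanol array 3, while the others read 7.94 to 8.25. The same probe read 8.41 on siCoCoA ethanol array 4, below 8.67 to 8.72 on the others. TSC22D2 ILMN_2124187 read 8.55 on siNS dex array 5, above 7.83 to 8.07 on the others. TSC22D3 ILMN_2376403 read 5.99 on siCoCoA ethanol array 2, below 6.71 to 6.83 on the others. The siCoCoA dex array with the same number read 10.35, the lowest of its group.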

How the results depend on the processing

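Of 4439 single-probe values recomputed under alternatives, 4326 kept direction and side of the threshold, 56 lost a call, 57 gained one and 0 reversed. Quantile normalization, centring and the brightest probe per gene changed no call. Shares over all probes were not computed under the alternatives. The counts of member probes given below are therefore read as no result about the members. With the replicate block, counts of called member probes became 7 in siCCAR1, 5 in siCCAR2 and 3 in siZNF282 in ethanol and 4 in siCCAR1, 4 in siCoCoA and 4 in siCCAR2 in dex, and 7 for the siZNF282 dex response. The block added in siCCAR1 ethanol ZFP36L1 (-0.52), TSC22D4 (-0.53), ZFP36L2 (-0.31), TSC22D3 ILMN_1748124 (-0.35) and TSC22D1 ILMN_1787567 (-0.38). In siCCAR2 ethanol it added TSC22D3 ILMN_1748124 (-0.45) and ILMN_2376403 (-0.37), in siZNF282 ethanol ZFP36 (0.62), TSC22D3 ILMN_2376403 (-0.58) and TSC22D1 ILMN_1711091 (-0.49), and in siCoCoA ethanol ZFP36 (0.59), where TSC22D2 ILMN_2124187 (-0.30) was lost. It added TSC22D3 ILMN_1748124 (-0.49) and ILMN_2376403 (-0.54) in siCCAR1 dex, and TSC22D4 (0.82) and TSC22D1 ILMN_1711091 (0.65) for the siZNF282 dex response. For siCoCoA and siCCAR2 in dex, and for the 2 array pairs of the siZNF282 dex response, every same-number correlation was over 0.1. In the other comparisons named here some were under 0.1. Their mean was 0.09 for siCCAR1 in dex, against -0.03 for other numbers, and 0.01 for siZNF282 in ethanol, against -0.01. The block changed no call in the dex responses of the other siRNAs. Fitting only the groups compared gave 3 for the siZNF282 dex response, 4 for siZNF282 in ethanol, 1 for siCoCoA in dex and 1 for siZNF282 in dex, with TSC22D1 ILMN_1692177 added in siZNF282 ethanol (0.43, also with an intensity trend) and the siCCAR2 dex response of TSC22D3 ILMN_1781356 lost (0.72). A filter line of 6 gave 4 for siCCAR1 and 1 for siZNF282 in ethanol, and an intensity trend 4 for siZNF282 in ethanol and 4 for siCCAR1 in dex. Leaving out single arrays gave 3 to 5 for the siZNF282 dex response, 1 to 3 in siCCAR1, 1 to 4 in siCCAR2 and 0 to 1 in siZNF282 ethanol, and 2 to 5, 1 to 4, 1 to 3 and 0 to 3 in siCCAR1, siCoCoA, siCCAR2 and siZNF282 dex. The causes were not tested. Where 1 array remained, it was assumed to vary like the other groups. The difference between TSC22D3 ILMN_1748124 and ILMN_2376403 ran from -0.79 to -0.59 without single replicate pairs and kept its call. The planned start from non-normalized signals was not run. Signal over background limits ILMN_1781356, ILMN_2276952 and ILMN_1711091.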
